A study of Mus musculus with 12 samples.

Results

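Complement genes outside C1q were followed in fractions enriched for mouse sensory neurons, taken from trigeminal ganglia (TG) and dorsal root ganglia (DRG). The 9 genes were chosen by symbol among the 22609 genes counted in each library, and all 9 were listed. They were the proteases C1ra and C1s, the substrates C4b and C3, the convertase proteases C2 and Cfb, factor D (Cfd), properdin (Cfp) and the C3a receptor C3ar1. Complement is a cascade of plasma and tissue proteins in which one protease cleaves and activates the next. In the classical pathway C1q binds a surface, C1r activates C1s, and C1s cleaves C4 and C2, whose fragments join into a C3 convertase. In the alternative pathway factor B bound to C3b is cleaved by factor D, and properdin stabilises the resulting convertase. C3 is the point where the pathways meet, and its small fragment C3a acts through C3ar1, a receptor known on macrophages and microglia. Most plasma complement is made in liver, but macrophages, fibroblasts and glia also make components locally.

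RNA came from naive wild-type C57BL mice (C57BL/6J in the study's methods), with 3 libraries from females and 3 from males for each ganglion. The labels give ages of 3 to 4 months, while the study's methods give a younger age, put the females in the estrous phase and take the DRG from lumbar levels. Cells were enriched by density on a Percoll gradient, so the fraction was not sorted by a neuronal marker. The design names 3 females and 3 males, but which TG and DRG libraries share an animal is not stated. Each library is named here by its group and the number in its title.

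Reads assigned to genes ranged from 7511765 to 15396090 per library, so that 3 counts, taken as the floor of detection, corresponded to 0.195 to 0.399 CPM (read counts scaled to a common library total, with TMM factors where levels are given). Such floors cover counting error only. The log2 CPM of replicates of a group correlated across genes with r from 0.836 to 0.961. All 12 libraries matched their labelled sex. Sensory neuron markers, 10 of 10 detected, summed to 5732 to 10200 CPM. Markers of other cells were also present, with 10 fibroblast markers summing to 642 to 2294 CPM and 11 macrophage markers to 223 to 643 CPM. In such bulk fractions, fewer cells of a type and less RNA per cell cannot be told apart.

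Counts for C4b, C2, Cfb, C1ra and C1s are uncertain because of their neighbours in the genome. Positions are from the GENCODE annotation of mouse build NCBIM37 (mm9), in which all 9 genes are protein-coding. C4b, Cfb and C2 lie close together on the minus strand of chromosome 17, at chr17:34865325-34880827, chr17:34993319-34999463 and chr17:34999549-35035397, and C3 lies farther along it at chr17:57343397-57367559. An annotated same-strand transcript unit, Gm20547, shares 2246 exon bases with Cfb and 1656 with C2, and it was not among the genes counted in each library. C2 shares a further 161 exon bases with Zbtb12 on the opposite strand. C4b has a near-identical copy, C4a, which had 0 to 36 counts per library. Reads that align to both copies were not counted. C1ra (chr6:124462423-124473458, plus strand) and C1s (chr6:124480363-124586998, minus strand) are neighbours, and their copies C1rb and Gm5077 had 0 counts in 12 and 10 libraries. On the same strand C1ra shares 29 exon bases with C1rb, and C1s shares 205 with Gm5077. C1s also shares 576 exon bases with Gm16567 on the opposite strand, and whether counting used strand is not stated. C3ar1 (chr6:122797156-122806179), Cfd (chr10:79353598-79355401) and Cfp (chrX:20502580-20508681) shared no exon bases with another annotated gene.

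Of the 9 genes, 8 were detected, and these differed in level. Per length, as RPKM (CPM per kilobase of exon) over 12 libraries, C4b was at 10.2 ± 6.27 (SD), C1s at 9.80 ± 4.91 and C3ar1 at 5.43 ± 2.33. The RPKM was lower for Cfp at 2.50 ± 2.33, C3 at 2.33 ± 2.19, C2 at 1.97 ± 0.768, C1ra at 1.77 ± 1.03 and Cfb at 1.19 ± 1.06. Most neighbours in this order were not separated by their spread. C4b and C1s changed places between ganglia, at 11.2 and 7.81 RPKM in TG but 9.28 and 11.8 RPKM in DRG, and by the median over 12 libraries C1s was higher (9.58 against 8.22 RPKM). C4b exceeded C1s in 8 of 12 libraries, C1s exceeded C3ar1 in 10, Cfp exceeded C3 in 7, C3 exceeded C2 in 7, C2 exceeded C1ra in 9 and C1ra exceeded Cfb in 10. C3ar1 was the clearest step, above Cfp in 12 of 12 libraries. Cfd had 0 counts in all 12 libraries, where 3 counts would be 0.195 to 0.399 CPM. This is a limit on reads that were counted and not on the transcript, since Gapdh, a gene that every cell uses, had only 0 to 19 counts in these files. Factor D is also called adipsin and is abundant in fat cells. Of 8 adipocyte markers, 5 were detected and summed to 4.74 to 44.9 CPM. Cidec, Lep and Retn were at 0 counts in all 12 libraries and Adipoq had 19 counts in all. Lipe, a lipase gene, met the study's criteria for a sex difference in TG, at a log2 fold change of 1.44. Among all genes tested in TG, 5.15% passed with females on the higher side. Fabp4, the other adipocyte marker tested there, went the other way, at -0.84 (SE 1.34). In DRG none of the adipocyte markers passed, with Lipe at 0.44 (SE 0.90), Fabp4 at 0.10 (SE 0.86) and Plin4 at -2.37 (SE 1.82).

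C1ra and C1s, the paired proteases of the C1 complex, rose and fell together from library to library. C1s was at 42.7, 37.0 and 9.06 CPM in female TG libraries 1, 2 and 3, and at 18.1, 22.5 and 34.1 CPM in male TG. In DRG it was at 64.7, 56.4 and 32.8 CPM in females and 15.9, 25.8 and 51.4 CPM in males. The third library of each group thus went against the other two, low in females and high in males. C1ra showed the same order in TG, at 10.1, 6.18 and 1.02 CPM in females and 2.18, 2.35 and 5.80 CPM in males. In DRG C1ra was at 8.08, 6.22 and 6.43 CPM in females and 2.52, 2.81 and 9.93 CPM in males. The sexes overlapped for both genes in both ganglia. The log2 fold change, female over male, was 0.31 (SE 0.49, edgeR adjusted p = 0.754) for C1s and 0.80 (SE 0.80, edgeR adjusted p = 0.591) for C1ra in TG. In DRG it was 0.71 (SE 0.44, edgeR adjusted p = 0.550) for C1s and 0.42 (SE 0.76, edgeR adjusted p = 0.882) for C1ra.

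Over the 12 libraries the log2 CPM of C1ra and C1s correlated with r = 0.929, the highest of the 28 pairs among the 8 detected genes. It is given as a description, since the libraries share depth, cell makeup and, for some reads, adjacent annotation. The 250 bases before the start of C1ra (GRCm38.p6 chr6:124512371-124512620, plus strand) and of C1s (GRCm38.p6 chr6:124542360-124542609, minus strand) are shown from the RefSeq promoter table because the pair moved together. That of C3 (GRCm38.p6 chr17:57228137-57228386, minus strand) is shown because C3 had the most uneven levels. Each runs 5′ to 3′ on the gene's own strand, and capitals mark matches to TTNNGNAAT on either strand, a pattern of the kind bound by C/EBP factors.
C1ra promoter: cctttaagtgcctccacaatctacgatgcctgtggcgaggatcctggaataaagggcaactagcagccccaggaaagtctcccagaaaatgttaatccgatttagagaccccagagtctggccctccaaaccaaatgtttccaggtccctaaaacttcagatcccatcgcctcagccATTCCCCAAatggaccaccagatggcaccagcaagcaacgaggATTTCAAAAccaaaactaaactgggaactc
C1s promoter: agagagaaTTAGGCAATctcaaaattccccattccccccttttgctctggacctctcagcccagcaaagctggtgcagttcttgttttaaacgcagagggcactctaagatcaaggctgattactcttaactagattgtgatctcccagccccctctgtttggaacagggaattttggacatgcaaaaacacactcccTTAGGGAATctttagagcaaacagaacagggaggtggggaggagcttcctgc
C3 promoter: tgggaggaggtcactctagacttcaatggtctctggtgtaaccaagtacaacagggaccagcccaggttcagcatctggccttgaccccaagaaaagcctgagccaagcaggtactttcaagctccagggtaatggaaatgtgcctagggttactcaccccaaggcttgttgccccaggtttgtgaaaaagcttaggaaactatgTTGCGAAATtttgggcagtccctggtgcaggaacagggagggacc
The pattern occurred in 10.2% of 32851 promoters in the table. C1ra had matches beginning at -73 and -30 from the start, C1s at -242 and -52, and C3 at -45. The table holds another start for C1s, from which the only match begins at -90. Of the 9 genes, 6 were in the table. C4b, C2 and Cfb were not among them. The C3ar1 promoter held no such match but had TATAAA, searched on the gene's strand, at -235 and TGANTCA, which reads alike on both strands, at -22. Cfd and Cfp had none of these, and no promoter of the 6 genes held TTCNNNGAA or the longer interferon response element on either strand. Among all promoters, TATAAA occurred in 7.59%, TGANTCA in 6.75%, TTCNNNGAA in 7.02% and the interferon response element in 2.98%. A match of letters is a description and not a bound site.

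C4b, the substrate of C1s, was high in each group, and a single library set much of its spread. It was at 154, 63.4 and 28.1 CPM in female TG and at 31.1, 41.2 and 64.0 CPM in male TG. In DRG C4b was at 89.5, 70.9 and 30.2 CPM in females and 49.9, 43.7 and 33.0 CPM in males. Female TG 1 was the highest and female TG 3 the lowest of all 12 libraries, so the sexes overlapped. C4b was 0.90 higher on the log2 scale in female TG (SE 0.51, edgeR adjusted p = 0.328) and 0.60 higher in female DRG (SE 0.38, edgeR adjusted p = 0.562), and neither difference passed. Without female TG 1 the TG value was 0.01.

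C2, the protease that pairs with C4b in the classical convertase, varied least. It ran from 3.56 to 12.8 CPM over all 12 libraries. In TG the female libraries were at 12.05, 11.3 and 4.02 CPM and the male libraries at 5.83, 8.01 and 9.92 CPM. The DRG values were 12.8, 8.98 and 3.56 CPM in females and 7.76, 7.04 and 4.81 CPM in males. The third female library was again the lowest of its group. For C2 the log2 fold change was 0.26 (SE 0.49, edgeR adjusted p = 0.794) in TG and 0.39 (SE 0.64, edgeR adjusted p = 0.868) in DRG. C4b and C2 correlated with r = 0.880 over the 12 libraries.

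C3, the central component, was among the 2 genes that met the study's criteria for a sex difference in TG (a fold change above 2, an unadjusted p under 0.05 and, here, a mean CPM above 1 in the higher sex). Female TG libraries were at 22.0, 16.5 and 8.67 CPM, against 1.27, 3.87 and 11.001 CPM in male TG. Female TG 3 lay below male TG 3, so the sexes overlapped, with the female library higher in 8 of 9 possible pairs. In TG the log2 fold change of C3 was 1.60 (SE 0.66), with an edgeR unadjusted p = 0.0327 and adjusted p = 0.211. C3 no longer met the criteria with a GC and length correction (1.18), in one model of 12 libraries (1.55), or without female TG 1 (1.23), female TG 2 (1.51), male TG 1 (1.14) or male TG 2 (1.41).

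In DRG C3 was at 41.4, 11.6 and 8.04 CPM in females and at 0, 5.16 and 13.9 CPM in males. Male DRG 1 thus had no C3 read, where male DRG 3 had 176. Among the 4040 genes with a mean CPM between 0.5 and 2 times that of C3, 214 (5.30%) had a 0 in some library, and 9 (0.223%) had a 0 in male DRG 1. The difference in DRG was as large as in TG, at a log2 fold change of 1.65, but its error was larger (SE 1.06, edgeR adjusted p = 0.569) and it did not meet the criteria. With no filter on low counts it did, at 1.65.

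Cfb, the factor B protease of the alternative convertase, met the criteria in TG and was the only one of the genes whose sexes did not overlap. That is 1 of 8 in TG, against 12.3% of all genes higher in females. The level of Cfb was 2.99, 11.2 and 2.84 CPM in female TG and 1.27, 0.552 and 1.77 CPM in male TG. These are low levels, resting on 34 to 140 counts in females and 8 to 18 in males. The log2 fold change of Cfb in TG was 2.31 (SE 0.86), with an edgeR unadjusted p = 0.0212 and adjusted p = 0.188. Without female TG 2, the highest library, Cfb fell to 1.28 and no longer met the criteria, and without male TG 2 it was 1.95 and did not meet them either. In DRG the female libraries were at 6.90, 3.20 and 2.29 CPM and the male libraries at 2.15, 1.03 and 4.25 CPM. There the sexes overlapped, and the log2 fold change was 0.72 (SE 1.07, edgeR adjusted p = 0.850).

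Cfp, which encodes properdin and lies on the X chromosome, was higher on average in females in both ganglia without passing the test. Female TG libraries were at 2.81, 8.03 and 5.75 CPM and male TG libraries at 0.455, 2.69 and 3.73 CPM. Female DRG libraries were at 15.5, 3.29 and 2.71 CPM and male DRG libraries at 1.40, 1.59 and 4.10 CPM. The DRG difference was set largely by female DRG 1. For Cfp the log2 fold change was 1.32 (SE 0.81, edgeR adjusted p = 0.370) in TG and 1.58 (SE 0.97, edgeR adjusted p = 0.547) in DRG, and without female DRG 1 it was 0.31.

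C3ar1, the receptor for C3a, was the steadiest of the genes within female TG, at 25.9, 32.6 and 28.8 CPM. Male TG libraries were at 14.7, 19.2 and 33.4 CPM. In DRG C3ar1 was at 42.6, 18.8 and 10.2 CPM in females and 27.4, 10.4 and 16.9 CPM in males. The sexes overlapped in both ganglia. The log2 fold change of C3ar1 was 0.42 (SE 0.33, edgeR adjusted p = 0.483) in TG and 0.39 (SE 0.53, edgeR adjusted p = 0.828) in DRG, and without female DRG 1 the latter was -0.34.

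**Figure D1:**
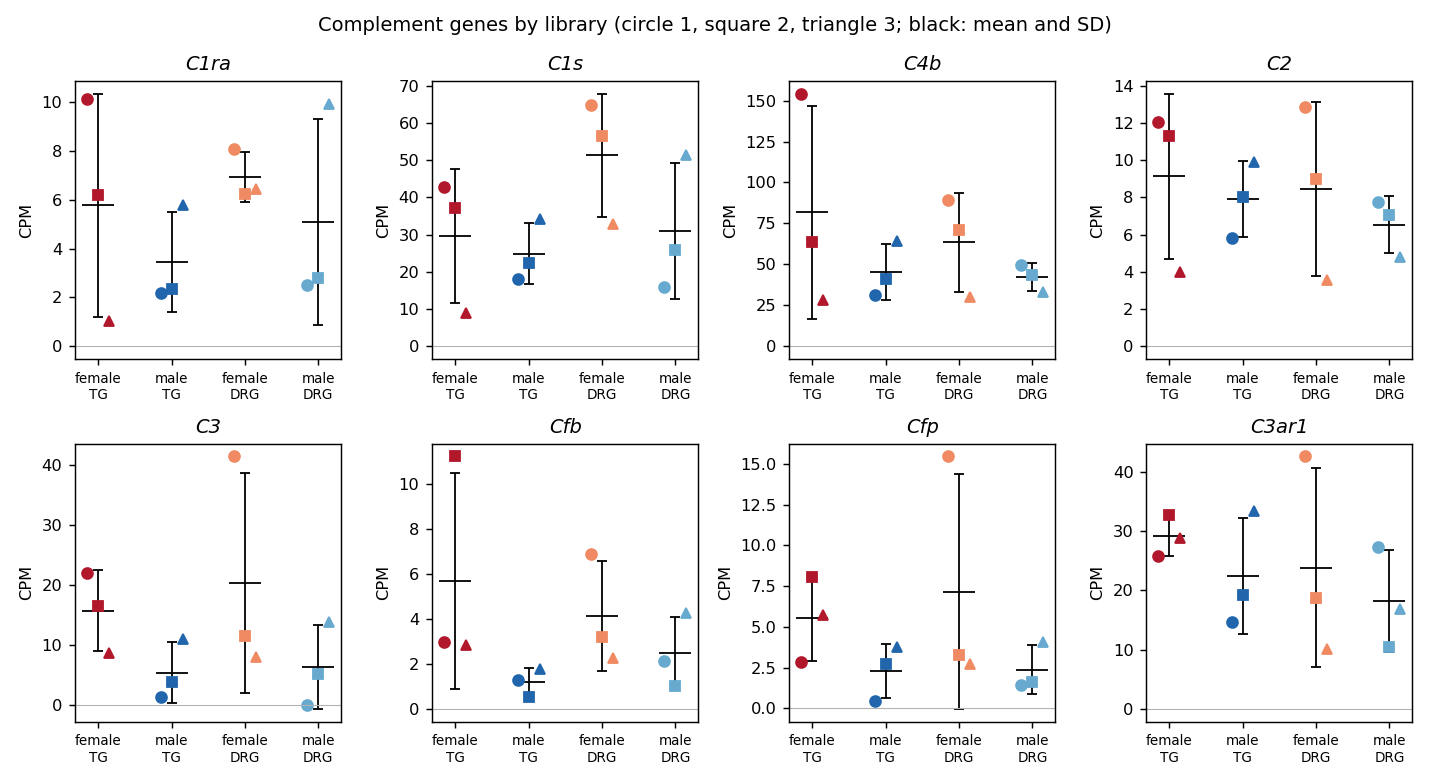
Level in CPM (vertical axis) of the 8 detected complement genes in each of the 12 libraries, by group. Symbols mark the library number, and black lines the group mean and SD (n = 3). Among female libraries the third (triangle) is often the lowest, and among male TG libraries it is the highest for 8 of 8 genes.

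The study set females against males within a ganglion. In TG 2 of the 8 tested complement genes met the study's criteria, both higher in females, where 5.15% of all 14009 genes tested did so in that direction, 2.26% in the other and 7.41% in either. The sexes did not overlap for 1 of 8, against 12.3% of all genes higher in females and 23.7% in either direction. In DRG 0 of 8 met the criteria, against 2.01% of 13963 genes higher in females, 2.96% higher in males and 4.97% in either direction. There the sexes did not overlap for 0 of 8, against 7.46% of all genes higher in females and 17.8% in either direction. At an unadjusted p under 0.05, edgeR gave 2 of 8 in TG, against 20.7% of all genes, and 0 of 8 in DRG, against 11.8%, and DESeq2 also gave 2 and 0. At an edgeR adjusted p under 0.05 none of the 8 passed in either ganglion, where 0.0357% of all genes passed in TG and 0.0358% in DRG. DESeq2 also passed 0 of the 8 in either ganglion, but many more of all genes, 753 of 14009 in TG and 320 of 13963 in DRG. In DRG, however, some of the 8 had no adjusted p by DESeq2. Their largest unadjusted p by DESeq2 was 0.591, above the largest adjusted p given, 0.392. With 3 libraries in each group, these p-values measure only the spread between the libraries at hand.

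All 8 tested genes had a log2 fold change above 0 in TG and in DRG, where 52.8% and 51.4% of all genes did. Their median log2 fold change was 0.85 in TG, against 0.05 for all genes, and 0.66 in DRG, against 0.02. Genes of one pathway that vary together across libraries are not independent, so this count was not tested. Some marker lists of other cells showed the same direction. In TG 11 of 11 macrophage and 9 of 9 fibroblast markers tested were above 0, and in DRG 10 of 11 and 8 of 10. Endothelial and mural markers were each 8 of 8 in DRG and 6 of 8 in TG. Satellite glia markers were 3 of 8 in TG and 5 of 8 in DRG.

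**Figure D2:**
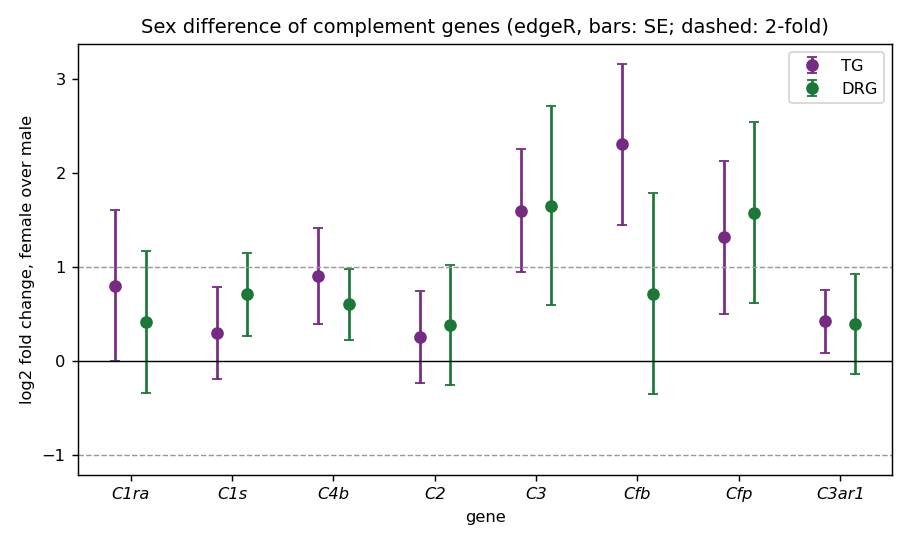
Log2 fold change, female over male (vertical axis), of the 8 tested complement genes in TG and DRG, with the SE from edgeR as bars and a 2-fold difference as dashed lines. All 16 points lie above 0, and of them Cfb (2.31) and C3 (1.60) in TG met the study's criteria.

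The libraries numbered 3 went against those numbered 1 and 2 for nearly every gene. When the female and male libraries of a number were set side by side, the female library was higher for 8 of 8 genes in TG number 1, TG number 2, DRG number 1 and DRG number 2. Among libraries numbered 3 it was higher for 2 of 8 genes in TG (Cfb and Cfp) and for 0 of 8 in DRG. Of all genes tested, the female library was higher in 45.2% to 52.5% in these comparisons. Both female libraries numbered 1 and 2 lay above both male ones for 8 of 8 genes in TG, against 36.2% of all genes, and for 7 of 8 in DRG, against 26.2%. Both this order and the opposite one at number 3 held for 6 of the 8 TG values, against 20.6% of all genes. For DRG both held for 7 of the 8 values, against 10.7%. In TG, 5066 genes had both female libraries above both male ones, and 2887 of them reversed at number 3. The DRG had 3660 such genes, of which 1495 reversed. The reversal was thus common among genes with this order and not particular to complement genes. What the number stands for is not stated.

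With the libraries numbered 1 and 2 only, 4 of 8 genes met the criteria in TG, where 13.1% of all genes did so higher in females, and 3 of 8 in DRG, where 5.2% did. This choice was made with the difference of the third libraries already known, so it is a description of the libraries left. In TG these were C1ra at a log2 fold change of 1.85, C3 at 2.88, C4b at 1.59 and Cfb at 2.99. In DRG they were C1s at 1.58, C3 at 3.40 and Cfp at 2.68. Leaving out a single library moved the number of genes that met the criteria between 0 and 4 in TG and between 0 and 2 in DRG. The 4 in TG were C1ra, C3, C4b and Cfb without female TG 3, where 9.05% of all genes met them higher in females. The 2 in DRG were C1s at 1.33 and C3 at 3.01 without male DRG 3, where 2.63% did.

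**Figure D3:**
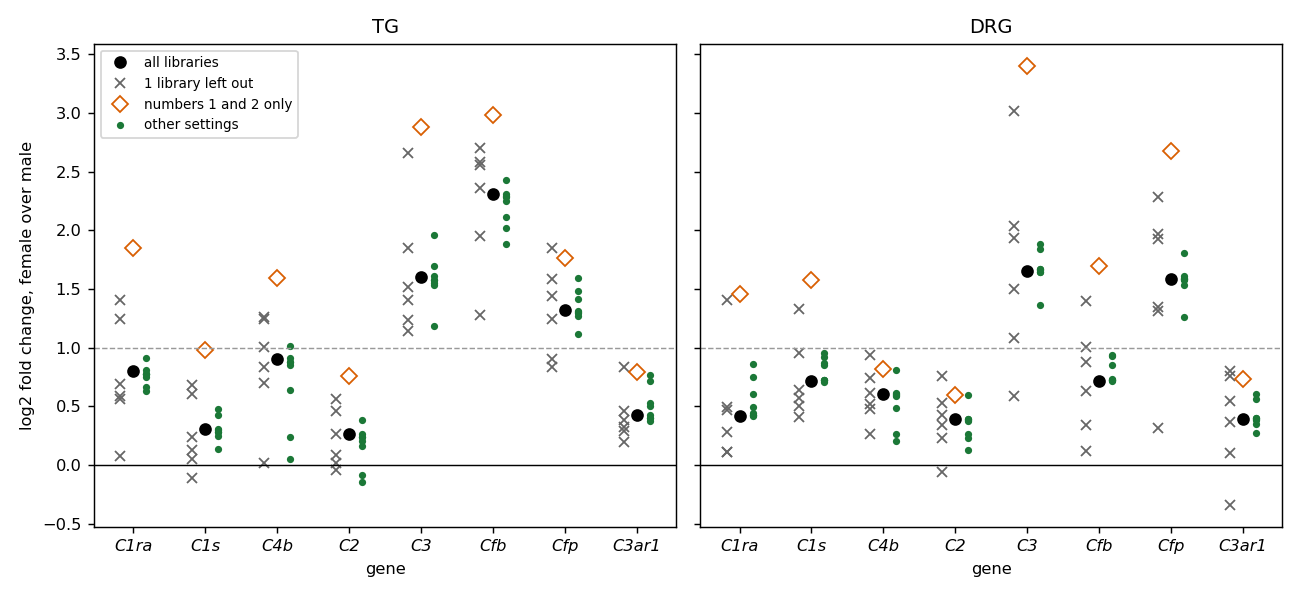
Log2 fold change, female over male (vertical axis), of each complement gene in TG and DRG under each way of processing. Black circles use all libraries, crosses leave out 1 library, diamonds use numbers 1 and 2 only, green points are other settings and the dashed line is a 2-fold difference. The diamonds lie above the black circles for all 8 genes in both panels.

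Some marker lists of the cells in the fraction moved with the same libraries, and others did not. Summed sensory neuron markers were at 5816, 5732 and 7971 CPM in female TG and 7967, 7981 and 5993 CPM in male TG. Summed fibroblast markers went the other way, at 1744, 1631 and 1075 CPM in female TG and 642, 813 and 1450 CPM in male TG. Thus the summed neuron markers were high and the summed fibroblast markers low in female TG 3, and male TG 3 was the reverse. Single neuron markers did not all move alike. Their log2 fold change, female over male, was above 0 for 5 of 10 in TG and 3 of 10 in DRG. In TG Scn10a was at 0.69 and Snap25 at -0.78. In DRG the neuron markers were at 6100, 6001 and 10200 CPM in females and 9124, 9658 and 8639 CPM in males, and the fibroblast markers at 2183, 2294 and 1503 CPM and 1079, 1180 and 1650 CPM. The 11 macrophage markers were at 495, 643 and 402 CPM in female TG, 242, 409 and 456 CPM in male TG, 367, 571 and 223 CPM in female DRG and 279, 235 and 320 CPM in male DRG. In DRG 8 endothelial markers followed the same order, at 657, 726 and 361 CPM in females and 226, 238 and 378 CPM in males. In TG they were at 440, 704 and 468 CPM in females and 356, 437 and 492 CPM in males. Of these 8 markers, 4 met the criteria higher in females in DRG (median log2 fold change 1.03) and 0 in TG (median 0.31). Of 8 mural markers 3 met them in DRG and 2 in TG, where Acta2 (-0.92) and Tagln (-1.01) were lower in females without meeting them. Of the fibroblast markers tested, 2 of 10 met them in DRG and 4 of 9 in TG. For macrophage markers it was 2 of 11 in each ganglion. For myelinating Schwann cell markers it was 0 of 7 in DRG and 2 of 7 in TG. For sensory neuron markers it was 1 of 10 in DRG (Rbfox3, at 1.05) and 0 of 10 in TG. Of all genes, 2.01% met the criteria higher in females in DRG and 5.15% in TG. Satellite glia markers were lowest in the third library of each group. These libraries were at 1637 CPM in female TG, 2360 CPM in male TG, 1355 CPM in female DRG and 1756 CPM in male DRG. Mural markers in TG were at 301, 459 and 301 CPM in females and 389, 253 and 292 CPM in males. In DRG they were at 469, 677 and 296 CPM and 301, 239 and 312 CPM. Myelinating Schwann cell markers in TG were at 2945, 2164 and 2127 CPM in females and 1927, 2039 and 2707 CPM in males. In DRG they were at 2912, 1889 and 2455 CPM and 2478, 2494 and 2263 CPM. The part of these cells in the sex differences was not tested.

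Across the 12 libraries all 8 detected complement genes correlated negatively with the summed sensory neuron markers and positively with the fibroblast and macrophage markers. All 8 were also positive with endothelial (r from 0.378 to 0.713), mural (0.286 to 0.599) and myelinating Schwann cell markers (0.199 to 0.570). With fibroblast markers r was 0.792 for C1s, 0.778 for C1ra, 0.698 for Cfb, 0.693 for Cfp and 0.669 for C3. With sensory neuron markers it was -0.791 for C2, -0.766 for C4b and -0.718 for C3ar1. C2 also varied with satellite glia markers (r = 0.738), and C3 with endothelial markers (r = 0.713). With macrophage markers r ran from 0.288 for C1ra to 0.646 for C3ar1, and was 0.613 for C2, 0.587 for C4b and 0.556 for Cfp. C3ar1 and C1s were nearly unrelated (r = 0.098). Differences between these correlations were not tested. All 12 points share their libraries, so these values describe how the fractions differed and carry no test. By the same measure, the most similar of 13919 genes were C1ra and the collagen gene Col8a1 for C1s (r = 0.923 for Col8a1), Arhgap17 beside C1s for C1ra (r = 0.909), and Nckap1l, a gene of blood cells, and Asap3 for C3ar1 (r = 0.891 and 0.883). They were Mast3 and C630004H02Rik for C4b (r = 0.932 and 0.929), Chst3 and Tbx2 for C2 (r = 0.956 for each), and 1700052K11Rik and Hook2 for C3 (r = 0.941 for each). Camkk2 and Brf1 were most similar to Cfb (r = 0.927 and 0.917), and Bcl11b and Pik3ap1 to Cfp (r = 0.920 and 0.899).

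**Figure D4:**
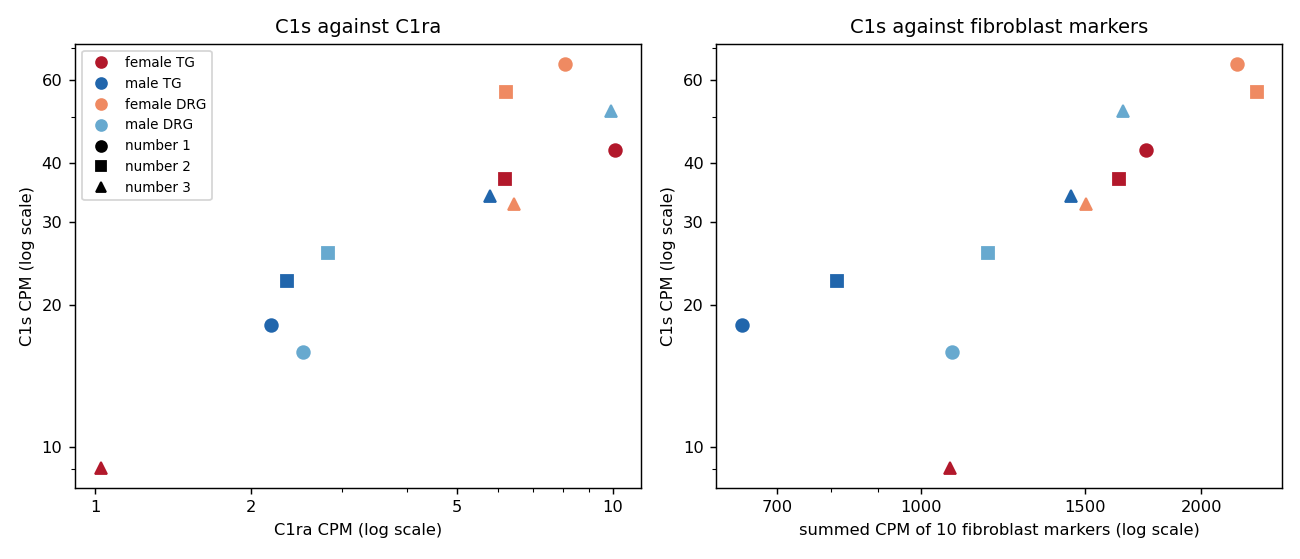
C1s (vertical axis, CPM, log scale) against C1ra (left) and against the summed CPM of 10 fibroblast markers (right), both on log scales, in the 12 libraries. Colours mark groups and symbols the library number, and female TG 3 (C1s at 9.06 CPM) is the lowest point in both panels.

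TG and DRG did not differ detectably in these genes. The log2 fold change, TG over DRG, ran from -0.56 (SE 0.35) for C1s to 0.29 (SE 0.33) for C3ar1. It was above 0 for 3 of 8 genes, C4b, C2 and C3ar1. In this comparison 0 of 8 passed an adjusted p under 0.05 with a fold change above 2, where 0.769% of 14829 genes passed, and edgeR and DESeq2 each gave 0 of 8 at an unadjusted p under 0.05, which 8.83% of all genes passed by edgeR. The 2 ganglia overlapped for 8 of 8 genes, where 1.36% of all genes did not overlap. The smallest edgeR adjusted p was 0.759, for C1s, whose mean level was 27.2 ± 12.8 CPM in TG (SD, n = 6) against 41.1 ± 19.1 CPM in DRG.

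Whether the sex difference itself differed between ganglia was tested as an interaction. For Cfb the TG difference exceeded the DRG one by 1.52 on the log2 scale (SE 1.33), with an edgeR unadjusted p = 0.267. For the other genes the unadjusted p ran up to 0.996, for C3ar1. None of the 8 passed at an adjusted or unadjusted p under 0.05 by edgeR or DESeq2, and 0% of all genes passed at an adjusted p under 0.05, and 1.97% at an unadjusted one. C3 and Cfb are therefore not shown to be specific to TG.

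Of 46 other complement genes looked up, 43 were listed in the files. In TG 25 were tested, 5 met the criteria, each higher in females, where 5.15% of all genes did, and the median log2 fold change was 0.35. The C1q chains C1qa and C1qc were among them, at log2 fold changes of 1.48 and 1.30, while C1qb was at 0.40 and did not pass. The others were the C5a receptor C5ar1 at 1.23, the complement receptor 3 subunit Itgam at 1.41 and vitronectin (Vtn), an inhibitor of the terminal complex, at 1.10. In DRG 22 were tested, with a median of 0.13, and Vtn alone met the criteria, at 1.29, where 2.01% of all genes did higher in females. The study itself named C1q, C3, Itgam and Vtn from these libraries, so their direction here is no independent evidence. Per length, C1qa at 28.6 RPKM and C1qb at 19.4 RPKM stood above C4b, and C1qc at 10.9 RPKM was close to it. In TG against DRG 0 of 28 tested passed, where 0.769% of all genes did.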

How the data were processed

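RNA-seq was made from 12 Percoll-enriched sensory neuron fractions. Per the labels and methods, 10-20 ng of total RNA was depleted of ribosomal RNA, made into dUTP stranded libraries, read as short single reads, aligned to mm9 with TopHat2 and counted with HTSeq. Versions, annotation and strand setting are not given in the sources used here. The authors deposited raw read counts per gene symbol, and reads that align to several places (38.4% to 49.5% of all reads) are not counted, so that genes with near-identical copies are too low. Lines that name no gene were left out. Reads outside genes were 37.6% to 50.4% of the sum of reads in and outside genes.

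Counts were tested with edgeR 4.0.16 in R 4.3.3 (quasi-likelihood F-test, filterByExpr, TMM), by sex within each ganglion (6 libraries) and, in 1 model of 12 libraries, TG against DRG and the interaction, with Benjamini-Hochberg adjustment over all genes tested. The sex-check genes stayed in the counts of all genes. The study's criteria use RPKM above 1, for which a mean CPM above 1 stood in. The study used DESeq, and DESeq2 1.42.0 was an alternative here, beside other scaling and filters, a GC and length correction, a replicate block, other call rules and libraries left out. CPM used TMM factors over 12 libraries, and exon-union lengths matched 21627 of 22609 genes (95.7%). Correlations are Pearson's r of log2 CPM (prior count 2), for markers against the log2 of their summed CPM, and likeness was sought among genes with a mean CPM above 1. The scripts were tested on simulated data. All 9 genes are named, with the C1q chains, C4a and other complement genes that met the criteria. The genes, lists and tests were chosen with earlier results of these data known.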

Additional observations from a re-analysis of the deposited data

Results flagged for a closer look

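When the 6 libraries of a ganglion were pooled, 1 library stood apart from the other 5 by Dixon's test in 4 of 16 groups of values. These were C3 at 41.4 CPM and Cfp at 15.5 CPM, both in female DRG 1, C4b at 154 CPM in female TG 1, and Cfb at 11.2 CPM in female TG 2. All 4 were female libraries and the highest of their ganglion. The test used CPM on a linear scale with both sexes together, and was not adjusted for the 16 groups. Mean levels of all 8 genes were higher in females in both ganglia, so a high female library was the more readily flagged. Female DRG 1 had the fewest reads in genes, 7511765, and was the highest female DRG library for 8 of 8 genes.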

How the results depend on the processing

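In TG the 2 complement genes that met the criteria became 0 when an adjusted p under 0.05 was asked for, 0 with a replicate block (C3 at 1.96 and Cfb at 2.02), 1 with the GC and length correction (Cfb), 0 with both of these together (1.53 and 1.88), 1 in one model of 12 libraries and 4 with numbers 1 and 2 only, and leaving out 1 library gave 0 to 4. The median log2 fold change of the genes in TG was 0.27 to 1.32 with 1 library left out and 1.68 with numbers 1 and 2 only. In DRG the count of 0 became 1 with no low-count filter, 3 with numbers 1 and 2 only and 0 to 2 with 1 library left out, and the median was 0.27 to 1.37 and 1.52. TG against DRG and the interaction stayed at 0 in each setting run. The number of genes above 0 stayed between 6 and 8 with 1 library left out in either ganglion. Some log2 fold changes changed sign. In TG, C2 went to -0.089 with the GC and length correction and to -0.15 with the block added, and with 1 library left out C1s ran from -0.11 to 0.68 and C2 from -0.042 to 0.56. In DRG the same ranges were -0.057 to 0.75 for C2 and -0.34 to 0.80 for C3ar1. For TG against DRG, C3 went to 0.14 with the block and to 0.00054 with the block and the GC and length correction, where C4b went to -0.011, and C3ar1 was -0.11 with numbers 1 and 2 only. With 1 library left out it ran from -0.75 to 0.053 for C1ra, -0.83 to 0.34 for C3, -0.77 to 0.027 for Cfb, -0.47 to 0.42 for Cfp and -0.18 to 0.44 for C4b. The causes were not tested. Same-numbered libraries deviated together with r from -0.10 to 0.22 over the pairs of sex and of ganglion, not above 0.1 in every pair of any comparison, so the numbers do not show a pairing. Of 6 libraries each, 0 deviated most like the library of their own number between the sexes in TG, 6 in DRG, and 4 between ganglia in either sex, which is a hint from the data only.

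Over all genes the count meeting the criteria in TG, 1038, was 2718 at a fold of 1.5, 302 with the GC and length correction, 250 with the block added, 5 by adjusted p, 3496 with numbers 1 and 2 only and 585 to 2532 with 1 library left out. In DRG 694 became 1645, 418, 379, 5, 1774 and 377 to 1585. The 5 in each ganglion are by edgeR. By DESeq2, 753 genes in TG and 320 in DRG had an adjusted p under 0.05. For TG against DRG 114 became 196 with DESeq2, 185 with the block, 182 with block and correction, 217 with numbers 1 and 2 only and 71 to 162. Without TMM factors the median of all genes rose by 0.12 in TG and 0.17 in DRG, and the share of these genes higher in females changed, in TG from 69.5% to 86.3% and in DRG from 40.5% to 77.9%, while all 8 complement genes kept their direction. In one model of 12 libraries the TG share was 57.1%, and in DRG it was 61.5% with the GC and length correction and 54.1% with the block added. Low counts limit Cfb, Cfp and C3, which had as few as 8, 5 and 0 counts in a library.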
